A study of Mus musculus with 10 samples.

Results

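The protein genes of the cytosolic ribosome were examined in 10 mouse lung tumors, of which 5 were KP and 5 were KPG1. Members were the rows of the count table whose symbol is Rpl or Rps followed by a number, with an optional a, l or x, together with Rplp0, Rplp1, Rplp2 and Rpsa. Symbols ending in -ps and Gm names, which are mostly pseudogenes, were left out, and a total of at least 100 counts over the 10 libraries was required. Of the 39017 rows of the table, 80 matched by symbol and 78 reached the minimum, 47 of the large subunit and 31 of the small subunit. Just outside it stood Rpl39l with 5 counts and Rpl10l with 0, and just inside it Rpl3l with 112 counts, followed by Rpl27 with 3713.

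KP mice form lung adenocarcinoma after Cre recombinase is brought into the airways, and KPG1 mice are KP mice homozygous for a floxed Slc2a1 (Glut1, a glucose transporter). All 10 tumors came from C57BL/6 males given Ad5SPC-Cre intratracheally, an adenovirus in which the promoter of surfactant protein C limits Cre to cells that make this protein. Tumors were taken 18 weeks and 6 days later, dissociated, and depleted of CD45-positive leukocytes, so stromal cells with an intact Slc2a1 remained in the fraction sequenced. For the controls one label gives a heterozygous floxed Slc2a1 and another gives wild type, so the controls are simply called KP here. It is not stated whether each tumor came from its own mouse, and the p-values measure the spread between these libraries only.

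Ribosomal proteins are built around ribosomal RNA into a small subunit, which reads the mRNA, and a large subunit, which joins the amino acids. Their mRNAs are among the most abundant of a growing cell and begin with a terminal oligopyrimidine (TOP) tract, through which mTORC1 and Larp1 control their translation together. Each of these genes has left many intronless copies in the mouse genome, so a short read from a ribosomal protein mRNA often matches several places.

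Libraries held 32427029 to 49534284 counts. Summed epithelial markers lay between 24580 and 81900 CPM (counts scaled to the size of the library), against 125 to 242 CPM for summed leukocyte markers, and Cd3e, Cd3d, Cd8a and Nkg7 were at 0 in at least 1 library. Endothelial markers summed to 368 to 1833 CPM, fibroblast markers to 116 to 524 CPM, airway markers to 38.7 to 308 CPM and erythroid markers to 94.5 to 483 CPM, with the ranges of the groups overlapping for every list. Mitochondrially encoded genes had 0 counts in every library. All but 1 of the 78 symbols went with their own Ensembl identifier in the annotation. The row with symbol Rpl24 carries ENSMUSG00000022601, which GENCODE M21 gives to Zbtb11, a zinc finger gene next to Rpl24 on chromosome 16, while the identifier of Rpl24 stands in a row with symbol RPL24 that the rule does not take. That row had between 55 and 1284 counts per library and a log2 fold change of -0.65 ± 0.86 (SE, limma), so it could not separate the groups. The row with symbol Rpl24 stays in the counts given here, and the counts without it follow beside them.

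The targeted gene was checked first. Slc2a1 had a log2 CPM of 6.30, 6.99, 6.95, 6.76 and 6.16 in KP 1 to KP 5 and of 5.57, 6.06, 5.35, 5.68 and 5.47 in KPG1 1 to KPG1 5. All KPG1 libraries were below all KP libraries, with a log2 fold change of -1.01 ± 0.20 (SE; adjusted p = 0.0675 in limma with Benjamini-Hochberg adjustment over 16216 genes). The exact permutation test of this gene alone gave p = 0.00794 (two-sided), which is the smallest p that 5 against 5 libraries allow.

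The comparison asked whether the ribosomal protein genes differ between tumors started with a floxed Slc2a1 on both alleles and control tumors. Most were fitted lower in KPG1, by a small amount, and none passed the threshold after adjustment. Of 78 members, 70 had a negative fold change (89.7%), against 47.3% of all genes tested. The median log2 fold change was -0.26, which is 83.6% of the KP level, beside a median of 0.02 over all genes. No member had an adjusted p under 0.05 in limma, where 0.173% of all genes did, or in the quasi-likelihood test of edgeR, while DESeq2 called 8, all lower, where it called 3.38% of all genes. At an unadjusted p under 0.05 in limma 22 members were lower (28.2%) and 0 were higher, where 6.31% of all genes were lower and 5.26% were higher. Without the row with symbol Rpl24 these counts were 22 lower and 0 higher of 77, with 70 fitted lower. In a bulk fraction, fewer cells of a type and less RNA per cell cannot be told apart.

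**Figure D1:**
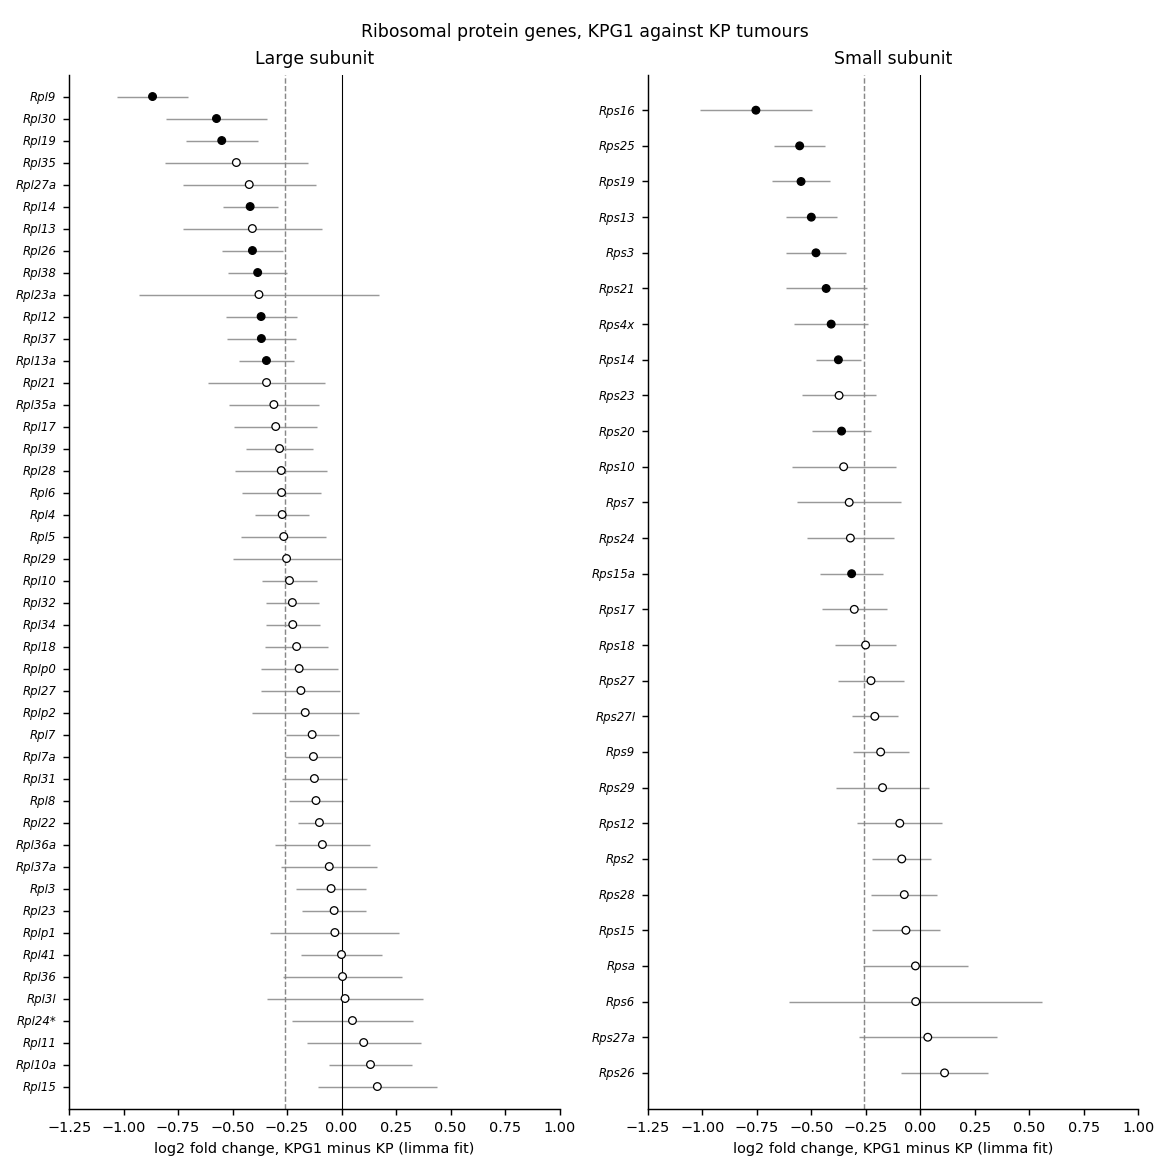
Fitted log2 fold change (KPG1 minus KP) of 74 of the 78 rows with its standard error (gray bars), large subunit left and small subunit right. Filled points have an unadjusted limma p under 0.05, the dashed line is the median of the 78 rows (-0.26), and Rpl24* is the row whose identifier belongs to Zbtb11. All 19 filled points drawn lie left of 0.

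Both subunits were shifted the same way. In the small subunit 13 of 31 genes were lower at the unadjusted threshold and 29 were fitted lower, with a median log2 fold change of -0.32. In the large subunit 9 of 47 rows were lower at that threshold and 41 were fitted lower, with a median of -0.23. Whether the subunits differ from each other was not tested.

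The summed counts show the same difference on the scale of a library. The 78 rows took 2.41%, 2.17%, 2.45%, 2.57% and 1.87% of the counts in KP 1 to KP 5, a mean of 2.29% ± 0.28 (SD, n = 5). They took 1.65%, 1.89%, 2.02%, 2.04% and 2.01% in KPG1 1 to KPG1 5, a mean of 1.92% ± 0.16 (SD, n = 5). KP 5 fell among the KPG1 libraries and the other 4 KP libraries lay above all of them. The small subunit took 0.988% ± 0.118 in KP and 0.793% ± 0.072 in KPG1, and the large subunit 1.30% ± 0.16 and 1.13% ± 0.09 (SD, n = 5 each). Weighting every gene alike, and with libraries scaled by TMM factors, the mean log2 CPM of the 78 rows did not overlap between the groups. It lay between 7.34 and 7.53 in the KP libraries and between 6.997 and 7.29 in the KPG1 libraries. The shares above use library totals without such factors. KP 5 had the lowest factor (0.8795), which raises its log2 CPM, so the separation rests on the scaling and not on the weighting alone. KPG1 1 was the lowest library for 37 of the 78 rows, and KP 4 and KP 3 were the highest for 26 and 24.

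**Figure D2:**
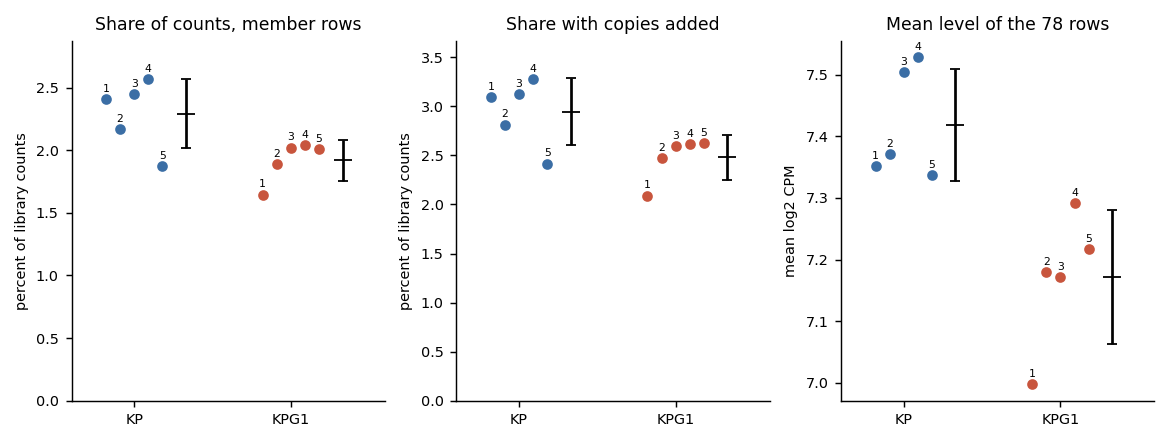
Share of each library's counts on the 78 rows, the same share with the counts of near-identical copies added, and the mean log2 CPM of the 78 rows. Each numbered point is a library, and bars give the mean and SD (n = 5). KP 5 reached 1.87% of unscaled counts, below 4 of the 5 KPG1 libraries. In log2 CPM, which is scaled by TMM factors, the mean of every KP library was above 7.29.

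In 8 members (10.3%, against 1.76% of all genes) every KPG1 library was below every KP library, and in 0 members was the order the reverse (1.05% of all genes). These were Rpl9, Rps25, Rps13, Rps19, Rps14, Rps3, Rpl14 and Rps20, of which 6 belong to the small subunit. The order is that of log2 CPM scaled by TMM factors. By library totals alone, KP 5 fell among the KPG1 libraries for Rps3, Rpl14 and Rps20. With the counts of near-identical copies added, as described further on, Rpl9, Rps25 and Rpl14 overlapped. The Rpl19 family did not overlap at the scaling factors of the main fit. Its lowest KP library stood at 7.91 and its highest KPG1 library at 7.86 log2 CPM. Rpl9, a protein of the stalk base of the large subunit (chromosome 5, 65388364 to 65391444, minus strand, mm10), had the smallest p. The KP libraries, 1 to 5, stood at 7.41, 7.15, 7.65, 7.71 and 7.39 log2 CPM, the KPG1 libraries at 6.96, 6.23, 6.77, 6.40 and 6.62. The highest KPG1 library was KPG1 1, still below KP 2, and the log2 fold change was -0.87 ± 0.16 (SE), or 54.8% of KP (adjusted p = 0.0614, limma). It was -0.62 with copies sharing a window added and -0.54 with pseudogenes of the same stem added (adjusted p = 0.229 and 0.272, limma). The share of the family's counts on Rpl9 itself was 48.4% to 61.2% in the KP libraries and 38.8% to 51.1% in the KPG1 libraries.

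Rps25, a small subunit protein of the head that viral internal ribosome entry sites depend on (chromosome 9, 44407139 to 44410427, plus strand), was the next. It had a log2 CPM of 7.82, 7.66, 7.76, 7.84 and 7.70 in KP and 6.99, 7.27, 7.02, 7.47 and 7.26 in KPG1. The KP libraries were tightly grouped (SD 0.08), and the log2 fold change was -0.55 ± 0.12 (SE; adjusted p = 0.0961, limma).

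Rps19, the small subunit gene most often mutated in Diamond-Blackfan anemia, followed the same order. Its log2 CPM was 8.31, 8.82, 8.56, 8.40 and 8.53 in KP and 7.76, 8.24, 8.05, 7.93 and 7.90 in KPG1, so that KPG1 2 came close to KP 1 without reaching it. The log2 fold change was -0.55 ± 0.13 (SE; adjusted p = 0.155, limma).

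Rps3, which lines the mRNA entry channel and also takes part in DNA repair, shares no stretch of a read length with any other annotated gene. Its log2 CPM was 10.24, 10.14, 9.98, 10.42 and 9.98 in KP and 9.47, 9.89, 9.68, 9.48 and 9.83 in KPG1, without overlap on this scale. The log2 fold change was -0.48 ± 0.14 (SE; adjusted p = 0.234, limma). Rps14, deleted in the 5q- syndrome, had -0.38 ± 0.10 and Rps13 -0.50 ± 0.12 (adjusted p = 0.206 and 0.144, limma). Their spread within a group was among the smallest of all members, with a pooled SD of 0.09 and 0.10 log2 units.

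The other members at an unadjusted p under 0.05 had groups that overlapped. Rps16 had a log2 fold change of -0.75 ± 0.26 (SE), but KP 3 at 8.10 was below 4 of the 5 KPG1 libraries. Rpl19 had -0.55 ± 0.16, and KP 4 at 6.80 overlapped KPG1 4 at 6.88. Rpl26, a large subunit protein at the exit of the nascent chain, had -0.41 ± 0.14 (adjusted p = 0.302, limma). Others were Rpl38, Rpl13a, Rpl30, Rps4x, Rpl37, Rps21, Rpl12 and Rps15a, with log2 fold changes from -0.57 for Rpl30 to -0.31 for Rps15a.

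On the other side, 8 rows were fitted higher in KPG1 and none was near the threshold. Rpl15 had a log2 fold change of 0.16 ± 0.27, Rpl10a 0.13 ± 0.19, Rps26 0.11 ± 0.20 and Rpl11 0.10 ± 0.26 (SE). Rpl11 is a partner of the 5S RNA and of Mdm2, and Rpl5, which binds the same RNA, had -0.27 ± 0.19. Rps27a, made as a fusion with ubiquitin, had 0.03 ± 0.32, Rpl3l 0.02 ± 0.36 and Rpl36 0.00 ± 0.27, and the row with symbol Rpl24 had 0.05 ± 0.28. Of these 8 rows only Rpl10a kept its sign in every alternative run, and the other 7 changed it with the test, the scaling, the copies or a library left out.

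The P stalk recruits the elongation factors to the large subunit. Rplp0 had a log2 fold change of -0.19 ± 0.18, Rplp2 -0.17 ± 0.24 and Rplp1 -0.03 ± 0.30 (SE; unadjusted p from 0.293 to 0.919, limma). Rplp1 ran from 6.73 in KP 5 to 8.18 in KP 3, so the spread within KP exceeded any difference between the groups.

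The level of a member differed far more between genes than between genotypes. Per kilobase of the main transcript, and ranked by the mean over all libraries, Rpl32 was the highest, with 1664 ± 103 CPM per kb in KP and 1429 ± 187 in KPG1 (SD, n = 5). It was followed by Rps14 with 1075 and 829, Rpl4 with 1019 and 843, Rps9 with 919 and 810, and Rps15 with 799 and 759 CPM per kb. The KP ranking below Rpl32 is not firm, since Rps14 and Rpl4 differ by less than their SD of 61.4 and 104. At the low end stood the paralog Rpl3l, a gene of heart and skeletal muscle, with 0.203 CPM per kb in KP and in KPG1. Rpl27 had 16.3 and 14.1, Rps12 35.3 and 32.4, and Rps13 35.9 and 25.3 CPM per kb. The row with symbol Rpl24 also ranked here, with 7.43 and 7.44 over the 4920 bases of its Zbtb11 transcript. The paralog Rps27l had 87.6 ± 6.7 and 75.9 ± 5.5 CPM per kb (SD, n = 5).

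Low levels of Rpl27, Rps12 and Rps13 went with copies that held most of the counts. For each member its main GENCODE M21 transcript was split into all windows of 85 bases, the length of the reads, and each window was looked up in all other annotated transcripts. A median of 54.5% of a member's windows was found in no other gene, from 1.53% in Rps27 to 100% in 3 members, Rps3 and Rpl3l among them. A set of 398 unnamed, clone-named or -ps genes that share a window and have a row in the table were each assigned to the member they share most with. A member and its copies are called a family here. A median of 76.7% of a family's counts lay on the member itself, and in 13 families under 50% did. The lowest shares were 13.1% for Rpl27, 14.5% for Rps13 and 21.4% for Rps12.

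The sequences show how little separates some members from their copies. In the windows below, taken from the coding sequence of GENCODE M21 transcripts (GRCm38), the lower-case bases are shared and a capital marks a base that differs. Rpl9 and Rpl9-ps6 (chromosome 19, 32465865 to 32466578, minus strand) differ at 1 of 576 coding bases, with 55381 counts on Rpl9 and 40219 on the copy. Rps25 and Rps25-ps1 (chromosome 6, 145266400 to 145266777, plus strand) differ at 4 of 375 coding bases, 2 of them in this window, with 72266 and 26503 counts.
Rpl9: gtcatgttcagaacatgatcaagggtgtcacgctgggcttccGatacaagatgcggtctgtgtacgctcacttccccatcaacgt
Rpl9-ps6: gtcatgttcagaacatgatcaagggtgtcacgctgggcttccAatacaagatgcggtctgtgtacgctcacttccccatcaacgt
Rps25: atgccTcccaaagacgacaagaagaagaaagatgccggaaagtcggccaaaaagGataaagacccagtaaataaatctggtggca
Rps25-ps1: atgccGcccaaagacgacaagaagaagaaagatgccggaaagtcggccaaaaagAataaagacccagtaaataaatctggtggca

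Counted from the first base of each window, the differences from the member to the copy are G43A in Rpl9, and T6G and G55A in Rps25. The coding sequence of Rps13 was identical to that of Rps13-ps2 over all 453 bases, and the copy had 23709 counts against 7166. How the counting treated reads that match several places is not given in the sources used here.

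Adding the copies left the direction of the members as a group in place. The families took 2.42% to 3.28% of counts in KP and 2.09% to 2.62% in KPG1. In the same limma fit on family sums 67 of 78 were fitted lower, with a median log2 fold change of -0.24. At an unadjusted p under 0.05 in that fit 25 were lower (6.49% of all genes were). With its scaling factors taken anew, 5 families did not overlap between the groups in place of 8. These 5 need not be the 8 less Rpl9, Rps25 and Rpl14, and no share over all genes was taken beside them. Members with at least 90% unique windows had a median log2 fold change of -0.27 (13 rows, 5 lower at the unadjusted threshold). The row with symbol Rpl24 was among these 13 rows but not among the 5 lower. Members with 50 to 90% had -0.31 (34 genes, 12 lower), and members under 50% had -0.23 (31 genes, 5 lower). Single families differed more from their member. Rpl15 itself had 0.16 and its family 0.64 (unadjusted p = 0.00923, adjusted p = 0.268, limma), and Rps12 had -0.09 and its family 0.66 (unadjusted p = 0.0521, adjusted p = 0.439, limma).

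In the Rpl15 family, 3 copies were higher in every KPG1 library. Gm8420 had 1 to 7 counts in KP libraries and 524 to 575 in KPG1 libraries (adjusted p = 1.915e-06, limma). Gm10224 had 9 to 27 and 129 to 480 counts, and Gm10020 had 42 to 85 and 144 to 232 (adjusted p = 0.0304 and 0.0382, limma). These rows, named after their values were seen, are pseudogenes in the annotation.

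**Figure D3:**
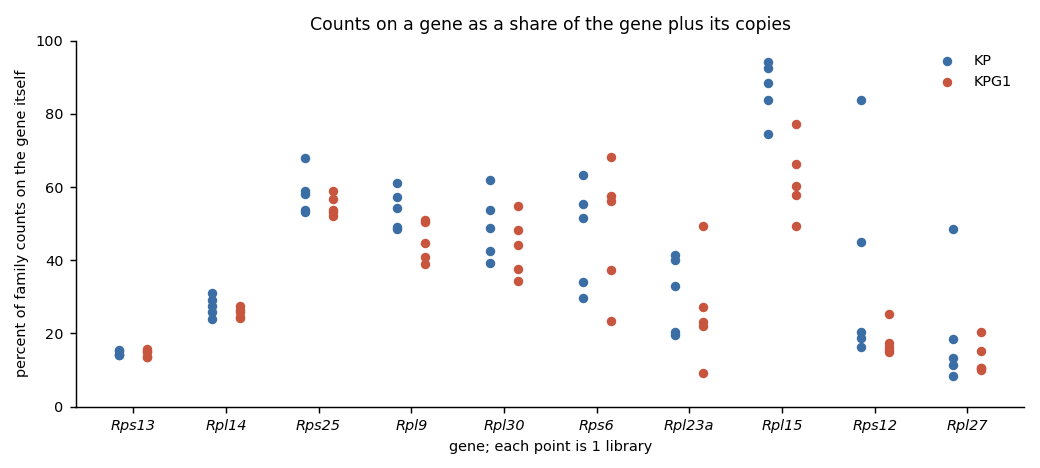
Counts on a member as a percentage of the member plus its copies, for 10 genes, with a point for each KP (blue) and KPG1 (red) library. Rps13 stayed between 13.6% and 15.7%, whereas Rps12 ran from 14.9% to 83.8% and Rpl15 from 49.5% to 94.2%.

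Over all 10 libraries the ratio of the highest to the lowest was 1.98 in the median member, 1.25 in Rpl22 and over 3 in 8 members. Within a group the larger of the ratios was 1.73 in the median member and over 3 in 4 members, Rps6, Rpl23a, Rpl13 and Rps27a. Rps6, the protein phosphorylated by S6 kinase, had the largest ratio over all libraries, 9.34. Levels of 6.79, 6.07, 7.90, 8.42 and 7.49 log2 CPM were measured for KP 1 to KP 5, and of 7.69, 5.66, 7.66, 8.89 and 6.64 for KPG1 1 to KPG1 5. High and low libraries occurred in both groups. The share of the Rps6 family on Rps6 itself ran from 23.4% to 68.2%, and the pooled SD fell from 1.08 for the gene to 0.56 for the family. Rpl23a, which docks chaperones at the tunnel exit, had a ratio of 8.46 over all libraries and 6.35 within a group. It was low in KP 4 (4.29) and KPG1 3 (3.88), and its pooled SD was 1.02 for the gene and 0.61 for the family. Over the 67 members with a counted copy, the spread of the family was smaller in 35 and larger in 32.

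**Figure D4:**
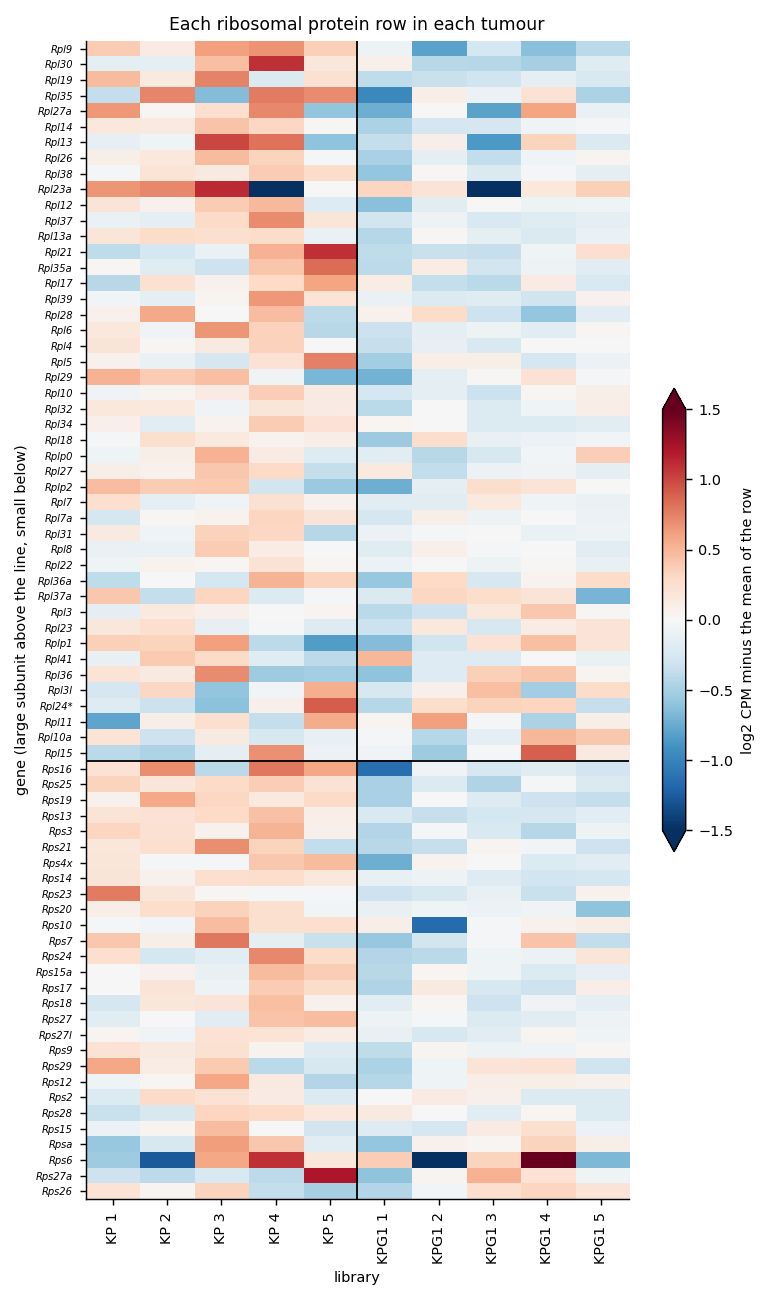
Log2 CPM of 74 of the 78 rows, each minus its mean over the 10 libraries (color, values beyond 1.5 drawn at 1.5), genes ordered by fold change within the large (top) and small (bottom) subunit. KPG1 1 is blue in most rows, and Rps6 and Rpl23a change color from library to library within each group.

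The members did not all vary together among tumors of the same group. After subtracting group means, the median Pearson correlation over the 3003 pairs of rows was 0.134. Of the pairs 18.2% were above 0.5 and 5.66% below -0.5, all computed over the same 10 libraries. The same measure was not taken over other genes, so whether the members covary more than other genes was not tested. A set with Rplp1, Rplp2, Rps26, Rpl29 and Rpl36 moved together, with correlations of 0.954 to 0.977 among the closest pairs, and in KP these were higher in KP 1 to KP 3 than in KP 4 and KP 5. Rpl41 ran opposite to Rps4x (-0.95) and Rpl5 (-0.90).

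Rpl30 was the reference gene against which the study normalized its real-time PCR, so its own level was followed. It had a log2 CPM of 6.39, 6.38, 6.97, 7.62 and 6.69 in KP 1 to KP 5 and of 6.60, 6.11, 6.10, 6.03 and 6.35 in KPG1 1 to KPG1 5. KPG1 1 lay above KP 1 and KP 2, and KP 4 was the highest. The log2 fold change was -0.57 ± 0.23 (SE), or 67.2% of KP (unadjusted p = 0.0291, adjusted p = 0.369, limma), and the exact permutation test gave p = 0.0317. With its copies, the group means of Rpl30 differed by -0.41 (pooled SD 0.28).

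Expressed relative to Rpl30, the difference in Slc2a1 was smaller. The log2 ratio of Slc2a1 to Rpl30 was -0.08, 0.61, -0.03, -0.86 and -0.53 in KP and -1.03, -0.05, -0.75, -0.35 and -0.88 in KPG1, and the groups overlapped. The means differed by -0.43, or 74.1% of KP, with an exact permutation p of 0.206, and the difference ran from -0.60 (without KP 4) to -0.23 (without KP 2) with 1 library left out. By comparison, relative to the library the same gene was at 49.8% of KP (exact permutation p = 0.00794). Relative to Rpl30 with its copies the difference was -0.60 (exact permutation p = 0.0556). Relative to the sum of all 78 rows it was -0.75, or 59.7% of KP (exact permutation p = 0.0159). The difference between these ratios was not tested. The study itself checked Glut1 deletion by real-time PCR on CD45-negative fractions of more tumors, and by staining of tissue. Read counts on the Rpl30 row are another measure than that PCR assay, so these ratios do not repeat it.

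**Figure D5:**
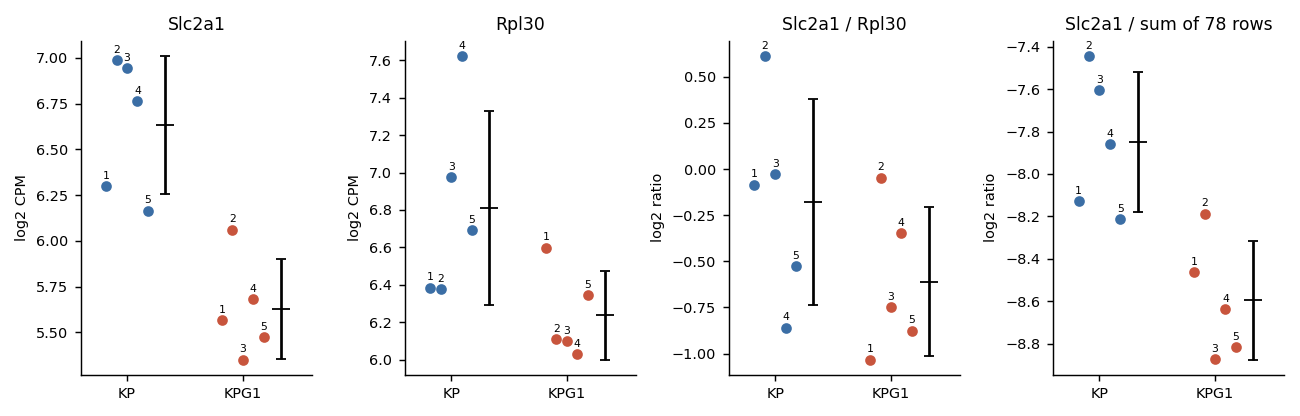
Log2 CPM of Slc2a1 and of Rpl30, and log2 ratio of Slc2a1 to Rpl30 and to the sum of the 78 rows, per library (numbered points) with mean and SD (n = 5). Slc2a1 separates the groups and the ratio to Rpl30 does not, with KP 4 at -0.86 and KPG1 2 at -0.05.

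Promoters of the members were compared by letters only. RefSeq (GRCm38.p6) gave 250 bases before to 50 after the start for 57 of the members (the first start listed, and without Rpl24). A run of at least 8 C or T on the coding strand, within 30 bases before to 20 after the start, was present in 28 of 57 (49.1%), against 18.3% of 27025 genes. On either strand CCGGAAG was found in 40.4% against 9.12%, GGGCGG in 59.6% against 35.9%, and AANATGGC in 15.8% against 6.23%. The fold change hardly moved with the run: the median was -0.27 in the 28 members with it and -0.24 in the 29 without.

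Shown are 50 bases before to 20 after the start for 5 members with a run that were fitted lower with a small p. Rpl15 and Rps26, which have a run and were fitted higher, stand beside them, and the run is in capitals. They lie at chr9:44407664-44407733 (Rps25, plus), chr9:120571467-120571536 (Rpl14, plus), chr11:114668530-114668599 (Rpl38, plus), chr7:45128726-45128795 (Rpl13a, minus), chr7:118116128-118116197 (Rps15a, minus), chr14:18270967-18271036 (Rpl15, minus) and chr10:128626487-128626556 (Rps26, minus).
Rps25: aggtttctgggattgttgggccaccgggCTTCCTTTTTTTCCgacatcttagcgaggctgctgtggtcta
Rpl14: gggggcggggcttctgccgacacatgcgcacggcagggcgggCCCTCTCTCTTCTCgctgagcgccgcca
Rpl38: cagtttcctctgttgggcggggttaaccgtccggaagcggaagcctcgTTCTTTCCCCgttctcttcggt
Rpl13a: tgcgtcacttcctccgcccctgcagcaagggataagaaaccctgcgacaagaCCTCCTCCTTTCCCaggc
Rps15a: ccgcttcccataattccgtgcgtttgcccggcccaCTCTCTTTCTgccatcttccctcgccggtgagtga
Rpl15: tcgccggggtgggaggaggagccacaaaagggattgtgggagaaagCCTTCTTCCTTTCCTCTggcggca
Rps26: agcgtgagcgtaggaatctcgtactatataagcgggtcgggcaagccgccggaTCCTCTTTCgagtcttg

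The runs were 14 bases long in Rps25, Rpl14 and Rpl13a, 10 in Rpl38 and Rps15a, 17 in Rpl15 and 9 in Rps26. So the longest of the 7 belonged to a gene that was fitted higher.

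Other genes of the translation machinery were read from lists. At an unadjusted p under 0.05 in limma 6.31% of all genes were lower and 5.26% were higher, and the list counts stand beside these shares. Of 75 genes of the mitochondrial ribosome tested, 1 was lower and 4 were higher at an unadjusted p under 0.05, and the median log2 fold change was 0.02. In all 34 of the 75 were fitted lower (45.3%), where 47.3% of all genes were. Of 95 rows with an Rpl or Rps symbol that holds -ps, 64 were fitted lower (67.4%) and 31 higher. At the unadjusted threshold 14 of the 95 were lower (14.7%) and 1 was higher, and their median was -0.19. Ribosomal protein genes that the symbol rule leaves out (7 tested of 9 listed) had a median of -0.25. Among them Rps3a1 had -0.37 ± 0.18, Gnb2l1 (Rack1) -0.25 ± 0.13, Fau -0.31 ± 0.19 and the paralog Rpl22l1 -0.54 ± 0.26, and none of these 4 passed the unadjusted threshold. Rpl36al had 0.08 ± 0.18, and Rpl7l1, which works in ribosome assembly, had 0.33 ± 0.14 with an unadjusted p of 0.0316.

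Of 65 ribosome biogenesis factors 1 was lower and 3 were higher at that threshold, with a median of 0.04, and 28 were fitted lower (43.1%). Sbds, which releases Eif6 from the new large subunit, had -0.38 ± 0.14, and Dhx33 and Rrp36 had 0.28 ± 0.11 and 0.41 ± 0.16. Of 18 other mRNAs with a TOP tract 1 was lower, Eif3f with -0.51 ± 0.16, and the median was -0.10. Of these 18 mRNAs 15 were fitted lower (83.3%) and 3 higher, where 47.3% of all genes were fitted lower. Eef1a1 had -0.31 ± 0.17 and Tmsb4x -0.22 ± 0.13.

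Of 38 initiation factors 3 were lower (7.89%, close to the share of all genes) and 1 was higher. Eif6 with -0.42 ± 0.14 was among the lower, and Eif5b, the subunit joining factor, was the higher with 0.33 ± 0.11. In all 24 of the 38 initiation factors were fitted lower (63.2%) and 14 higher. Of 8 elongation factors 0 passed, with a median of -0.08, and 6 were fitted lower (75%) and 2 higher. Eef1d had -0.19 ± 0.16 and Eefsec 0.24 ± 0.25.

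The list of TOP and ribosome regulators (25 symbols, 26 rows tested) had 4 lower and 1 higher at the unadjusted threshold, and its median was 0.02. Myc, a transcription factor that drives ribosomal genes, had a log2 fold change of -0.62 ± 0.15 with no overlap between the groups (unadjusted p = 0.00119, adjusted p = 0.142, limma). Its antagonist Mnt had -0.42 ± 0.13, also without overlap (adjusted p = 0.239, limma), and Mycn had 0.79 ± 0.35 (adjusted p = 0.420, limma). None of these lists had a gene past an adjusted p of 0.05 in limma.

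Some other measures also differed between the groups or between libraries. The slope of log2 CPM on gene length, per doubling of exonic length, ran from -0.0591 to 0.0133 among KP libraries and from 0.00221 to 0.0452 among KPG1 libraries, and members are short, with a median of 1806 exonic bases against 3971 over all genes tested. After the trends with length and GC content were removed in each library, 11 members in place of 22 were lower at the unadjusted threshold (5.4% of all genes), the median was -0.14 beside 0.05 over all genes, and 56 of 78 were fitted lower. Without KP 5, 27 members were lower at that threshold, as were 10% of all genes in place of 6.31%. Rpl9, Rps13 and Rps25 then passed the adjusted threshold (adjusted p from 0.0386 to 0.0430, limma), as did 1.78% of all genes in place of 0.173%. In the same run 15 members in place of 8 did not overlap. The share of all genes without overlap was not taken for it, and fewer libraries make separation easier for every gene. Summed proliferation genes stood at 165 CPM in KP 5, at 523 to 738 CPM in the other KP libraries and at 500.4 to 885 CPM in KPG1. Of 16 proliferation genes 4 were higher at the unadjusted threshold, among them Rrm2 with 1.02 ± 0.26, Ccna2 with 1.22 ± 0.36 and Top2a with 1.03 ± 0.40. Their median log2 fold change over all 16 was 0.85, and 0.30 without KP 5. Of 12 epithelial markers tested, Krt18 (-0.87 ± 0.15) and Krt8 (-0.67 ± 0.13) were lower and Sftpc (1.22 ± 0.40) and Abca3 (0.97 ± 0.36) were higher at that threshold. Of 12 leukocyte markers tested, S100a9 (-1.98 ± 0.46), S100a8 (-1.84 ± 0.50) and Itgam (-1.04 ± 0.33) were lower. Of 7 airway markers 5 were fitted lower and 2 higher, with a median of -0.18. Cyp2f2 had 2.11 ± 0.56 and Foxj1 -1.19 ± 0.42. The summed airway level, which the most abundant of these genes dominate, was 171% of KP in KPG1. All 10 endothelial and all 10 fibroblast markers were fitted higher, with medians of 0.32 and 0.40, and of these Dcn (0.75 ± 0.32) passed the unadjusted threshold. The part of these measures in the difference of the members was not tested.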

How the data were processed

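RNA of the CD45-negative tumor fraction was sequenced by the authors with the TruSeq stranded mRNA kit as single-end reads of 85 bases. Per the methods and the submitters' processing notes, reads were trimmed with Cutadapt, aligned to mm10 with HISAT2 and counted with featureCounts 1.4.4, with strand and multi-mapping settings not given in the sources used here. The deposited counts are whole reads per Ensembl gene, not normalized, and a comparison of the joint with the single-library tables found 0 differences in 390170 values. The deposited log2 table was not used.

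The filterByExpr function (edgeR 4.0.16) left 16216 genes, all 78 members among them. TMM factors, voom and limma 3.58.1 (R 4.3.3) were applied in a model with a single term, the genotype, and p-values were adjusted by Benjamini-Hochberg over all genes tested. Levels are log2 CPM with a prior count of 2. DESeq2 1.42.0, edgeR's quasi-likelihood test, other scalings and filters, and fits without each library were alternatives. Sums of members with copies, the ratio to Rpl30 with copies and the identifier of Rpl24 were added after seeing the data.

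Members, lists and tests were chosen with earlier results of these data known. Named genes were Slc2a1, Rpl30, in each direction the 10 members with the smallest p, the 5 highest and 5 lowest per length, paralogs, the P stalk, the ribosomal protein genes outside the symbol rule, and up to 3 genes of each list by p. Rps6, Rpl23a, Rps16, Rpl41, Rpl5, Rps4x, the members listed by the unadjusted p, and those of the covarying set were chosen after their values were seen. The engineered alleles that start the tumors, a few single genes and some sequences are not reported here, though counts over the members include every member.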

Additional observations from a re-analysis of the deposited data

Results flagged for a closer look

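In 17 of 206 groups of 5 libraries examined (8.25%), the highest or lowest library stood apart: its gap to the nearest other library, as a share of the group's whole range, was above 0.71. Chance flags about 1 in 20 groups. KP 5 and KPG1 1 were the library in 5 of them each. KP 5 was low for Rpl13a (0.745; log2 CPM 9.33, next 9.61), Rpl36al (0.868; 6.57, next 7.35), Ccna2 (0.854; 2.38, next 4.22) and Top2a (0.854; 3.39, next 5.43), and high for Rps27a (0.898; 6.70, next 5.26). KPG1 1 was low for Rps16 (0.784; 7.38, next 8.21), Rpl12 (0.723; 7.19, next 7.64) and Mnt (0.714; 4.44, next 4.82), and high for Rpl41 (0.738; 8.45, next 7.94). It was also low for the share of counts on members with their copies (0.716; 2.09%, next 2.47%).

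Rps20 was low in KPG1 5 (0.886), Rps10 in KPG1 2 (0.9), Rpl23a in KPG1 3 (0.913), Eef1d in KPG1 3 (0.716) and Rpl32 in KP 3 (0.749). Rps23 was high in KP 1 (0.754) and Rrp36 in KP 3 (0.834).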

How the results depend on the processing

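Under 22 alternatives the median log2 fold change of the members stayed between -0.29 and -0.14, and 50 members were fitted lower in every one. Of the 22 members with an unadjusted p under 0.05, 7 kept it in all 22 alternatives. The number past the adjusted threshold, 0 in limma, was 8 in DESeq2, 2 with a weight per library and 0 to 3 with each library left out, the highest without KP 5. Of all genes 3.38%, 1.41% and, without KP 5, 1.78% passed it, against 0.173%. The number lower at the unadjusted threshold was 11 with GC and length trends removed (5.4% of all genes). With each library left out it ran from 15 without KP 4 (5.26% of all genes) to 27 without KP 5 (10% of all genes). With copies added 1 was higher, the family sum of Rpl15 (Rpl15 itself had 0.16), where 3 copies were higher in every KPG1 library. The number without overlap, 8, was 5 with GC and length trends removed, 5 with copies added and 8 to 15 with each library left out. No share over all genes was taken beside these counts, and with a library left out separation is easier for every gene. The cause was not tested. The difference in Slc2a1 was -0.43 relative to Rpl30, -1.01 relative to the library and -0.75 relative to all members. Relative to Rpl30 it ran from -0.60 to -0.23 with each library left out.

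With the replicate number as a block, 16 members were lower at the unadjusted threshold, where 6.65% of all genes were. In that run 0 members passed the adjusted threshold, where 0.0308% of all genes did. The median of the members was -0.26 and Rpl36 was -0.016. Deviations of same-numbered libraries correlated at -0.161 to 0.076. These values cannot tell whether such libraries share anything beyond the number.

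Of 723 values for 52 named genes, 675 kept direction and side of the threshold, 17 newly passed it and 31 changed sign. Signs changed in DESeq2 for Rpl24 (-0.015), Rps27a (-0.085), Rpl3l (-0.014) and Rpl36 (-0.045), and in edgeR for Rps27a (-0.071), Rpl3l (-0.00082) and Rpl36 (-0.031). With GC and length trends removed they changed for Rpl24 (-0.010), Rps15 (0.067) and Rplp1 (0.16). With copies added they changed for Rpl11 (-0.19), Rpl27 (0.14) and Rps12 (0.66), and with pseudogenes of the same stem for Rps12 (0.66) and Rpl36 (-0.0068). Rpl36 was -0.0069 with median-of-ratios factors and -0.0043 with a weight per library, where Rpl36al was -0.066. With each library left out, Rpl15 ran from -0.041 to 0.35, Rps26 from -0.014 to 0.22, Rpl11 from -0.084 to 0.24, Rpl24 from -0.11 to 0.28, Rps27a from -0.090 to 0.33, Rpl3l from -0.16 to 0.16, Rpl36 from -0.14 to 0.18, Rps15 from -0.15 to 0.034, Rps12 from -0.24 to 0.033, Rplp1 from -0.26 to 0.11, Rpl36al from -0.10 to 0.13 and Eefsec from -0.014 to 0.36.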
